A study of Mus musculus with 4 samples.

Results

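The genes described here are the 4 Janus kinases and 6 inhibitors of the suppressor of cytokine signalling (SOCS) family, in mouse regulatory T cells. They were chosen by name, as the rows whose Ensembl identifier carries the GENCODE symbol Jak1, Jak2, Jak3, Tyk2, Cish, Socs1, Socs2, Socs3, Socs5 or Socs7, and make 10 of the 50600 genes in the tables. RNA was sequenced from primary cells labelled regulatory T cells of the strain C57BL/6NJ, in 4 libraries that form 1 group. The labels give no genotype or treatment, leave age and sex unstated, and tie all 4 biosamples to 1 donor record. The names of the count files carry the words activated and 48 h, and the labels link a differentiation protocol for CD4+ T cells, which was not used here. The assay is called total RNA-seq, whereas the linked library protocol is named for polyA+ RNA. Nothing sets these cells against other cells, and the labels do not say whether the biosamples were separate animals or cultures. Xist and Ddx3y, given with the markers, took female values in some libraries and male values in others, so the RNA did not all come from 1 animal, whatever the shared donor record. All p-values measure the spread between these 4 libraries, which may be in part technical.

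The receptors of many cytokines have no kinase domain, and their signalling chains carry a Janus kinase instead, while chains such as Il2ra and Il6ra only help to bind the cytokine. When a cytokine joins the signalling chains, the kinases phosphorylate each other, the receptor and the STAT transcription factors that dock there. STAT dimers then enter the nucleus and switch on target genes, among them Cish and several Socs genes, whose proteins return to the receptor and damp the signal. SOCS proteins bind phosphotyrosine through an SH2 domain and, through their SOCS box, recruit a ubiquitin ligase. In regulatory T cells interleukin 2, acting through Jak1, Jak3 and STAT5, sustains Foxp3, and loss of Socs1 is known to destabilise the lineage.

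The start regions of 3 inhibitors are shown because they hold the letters that STAT dimers or interferon regulatory factors are known to read. RefSeq promoter windows on GRCm38.p6, the assembly also called mm10, covered 7 of the 10 genes. Each window ran from 250 bases before the RefSeq start and had 300 bases in all. On both strands, TTCNNNGAA, the usual STAT letters, was searched, with the same ends around 4 bases in place of 3, the wider spacing that STAT6 also binds. GAAA, any 2 bases and GAAA, the letters of interferon regulatory factors, were added after the sequences had been seen. Capitals mark the matches, each stretch reads 5′ to 3′, and the stretches lie at chr9:107296654-107296682 on the plus strand for Cish, chr16:10785537-10785646 on the minus strand for Socs1 and chr11:117969467-117969566 on the minus strand for Socs3.
Cish: cagttTTCCTGGAAagTTCTTGGAAatct
Socs1: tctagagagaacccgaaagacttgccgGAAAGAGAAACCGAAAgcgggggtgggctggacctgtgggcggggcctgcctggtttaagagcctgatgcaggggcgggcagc
Socs3: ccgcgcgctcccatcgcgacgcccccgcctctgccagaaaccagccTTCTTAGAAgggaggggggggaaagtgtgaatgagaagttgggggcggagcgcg

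Cish held TTCNNNGAA 2 times, at bases 1 and 12 from the RefSeq start. This stretch lies inside the span of the deposited gene model, which begins further upstream, at 107296026. Of 32851 windows of this length, 8.3% held the letters at least 1 time and 0.457% at least 2 times. Socs3 held them 1 time, at base -154. That stretch too lies inside the span of the deposited gene model, which on the minus strand begins further upstream, at 117970047. Socs1 held the interferon regulatory factor letters 2 times, at bases -83 and -77, so that the copies overlap, and 0.225% of windows held at least 2 copies. None of the 3 patterns was in the windows of Jak1, Jak2, Jak3 and Tyk2, and the wider STAT spacing, held by 6.95% of all windows, was in none of the 7. These are matches of letters, not measured sites.

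The libraries held 43821767 to 73819468 counted fragments. No pair of libraries agreed within sampling noise, with a chi-square of 11.1 to 24.4 per degree of freedom over 14050 to 14052 genes. All 10 regulatory T cell markers checked, among them Foxp3, and all 8 pan T cell markers reached 1 TPM in every library. TPM is the length-scaled transcript level, counts divided by the summed exon length of the gene and brought to a common total in each library. None of 6 markers of CD8 and natural killer cells, 7 of red cells and platelets or 6 of stroma and epithelium did, and 2 of 6 B cell and 2 of 8 myeloid markers did. Those that did were Igkc at 4.89 ± 1.49 TPM and Cd79b at 3.11 ± 0.466, and Cd68 at 4.23 ± 0.990 and Adgre1 at 1.30 ± 0.328. Of those that did not, Eomes, from the CD8 and natural killer cell markers, was highest, at 0.819, 0.977, 1.53 and 1.45 TPM in replicates 1 to 4. The summed myeloid markers lay between 5.13 and 7.50 TPM, with Lyz2, S100a8, Csf3r and Mpo at 0 counts. The summed B cell markers lay between 6.38 and 10.7. Xist, which coats the inactive X, measured 172, 145, 0.255 and 0.367 TPM over the 4 replicates in order, and the Y-linked Ddx3y 0.152, 0.0781, 45.1 and 45.0. In bulk RNA, fewer cells of a type and less RNA per cell cannot be told apart.

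All 10 genes were expressed, at 1 TPM or more in each of the 4 libraries, a level that 22.9% of all genes reached. The median of the 10 was 92.7 TPM, beside 28.6 over the 11593 expressed genes. By TPM, Cish and Socs1, a pair of feedback inhibitors, stood highest, Jak1 and Jak3 followed, and Socs5 was lowest. Cish was 30.2 ± 1.53 times as abundant as Socs5 (SD, n = 4), or 68.0 ± 3.46 times with the main transcript lengths described further on. The plot of levels by gene and library shows the order.

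**Figure D1:**
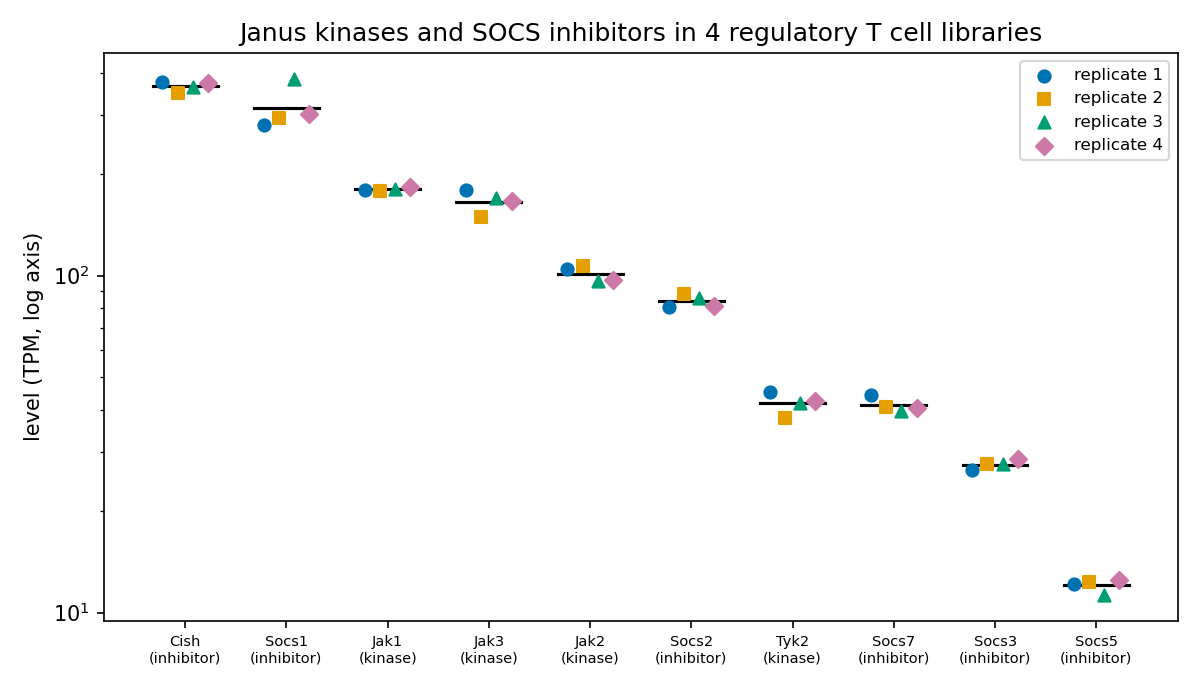
Level of each Janus kinase and SOCS inhibitor in TPM on a log axis, with 1 point per library and a black bar at the mean of the 4 libraries, ordered by mean. The genes run from Cish at 365 TPM to Socs5 at 12.1, and the libraries of a gene lie close together except for Socs1, which stands at 384 in replicate 3 and at 301 or less in the others.

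Jak1 is the kinase shared by the receptors of interleukin 2, interleukin 6, interleukin 10 and the interferons. The gene (ENSMUSG00000028530.14, chromosome 4, 101152367 to 101265282 of mm10, minus strand) stood at 179.7, 178, 181 and 183 TPM in replicates 1 to 4. Its mean was 180.3 ± 1.98 TPM. No library stood apart, and the coefficient of variation of 1.10% was smaller than that of all but 0.837% of expressed genes. Counting error alone would give 0.679%.

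Jak3 binds the common gamma chain and is found mainly in blood cells. The gene (ENSMUSG00000031805.17, chromosome 8, 71676296 to 71690575, plus strand) stood at 179, 149.5, 170.2 and 167 TPM, with a mean of 166 ± 12.5. Replicate 2 was lowest and replicate 1 highest. Jak3 shares 7.55% of its exon bases with Insl3 on the same strand, and fragments that fall in both genes can be lost from the count. Insl3 itself had 162, 223, 464 and 115 counts, and Jak3 12119 to 19715. The counts of Insl3 leave out such fragments too, so they do not show how many were lost from Jak3.

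Jak2, the kinase of interferon gamma receptor chain 2 and of many single-chain receptors such as that for erythropoietin, was lower. The gene (ENSMUSG00000024789.12, chromosome 19, 29251828 to 29313080, plus strand) stood at 105, 107, 96.7 and 96.8 TPM, with a mean of 101 ± 5.41. Replicates 1 and 2 lay above replicates 3 and 4, the same libraries that differed in Xist and Ddx3y. The part of those differences in the Jak2 values was not tested.

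Tyk2 serves the receptors of type I interferons, interleukin 12 and interleukin 10. The gene (ENSMUSG00000032175.11, chromosome 9, 21104068 to 21131243, minus strand) stood at 45.3, 37.9, 41.8 and 42.5 TPM, with a mean of 41.9 ± 3.05. As for Jak3, replicate 1 was highest and replicate 2 lowest, and the ratio of Jak3 to Tyk2 was 3.96, 3.95, 4.07 and 3.92. Of the summed kinase TPM, Jak1 held 36.8 ± 1.05%, Jak3 33.9 ± 1.59%, Jak2 20.7 ± 1.37% and Tyk2 8.54 ± 0.375%.

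Cish encodes CIS, a STAT5-induced inhibitor that also acts on T cell receptor signalling. The gene (ENSMUSG00000032578.7, chromosome 9, 107296026 to 107302784, plus strand) stood at 375, 348, 363 and 373 TPM, with a mean of 365 ± 12.3. The libraries lay close together. It was the most abundant of the 10 genes and ranked 444 among all genes by mean TPM. Cish made up 43.3 ± 2.58% of the summed inhibitor TPM.

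Socs1 blocks the kinases directly through a kinase inhibitory region and is the main brake on interferon gamma signalling. The gene (ENSMUSG00000038037.4, chromosome 16, 10783808 to 10785536, minus strand) stood at 280.0, 294, 384 and 301 TPM, with a mean of 315 ± 47.1. Replicate 3, the most deeply sequenced library, stood above the others. Its coefficient of variation of 15%, against 1.24% from counting error, was larger than that of 83.8% of expressed genes and the largest of the 10. The deposited gene model of Socs1 has 1220 exon bases, whereas its main transcript in the later GENCODE M21 has 2908, so fragments from the added bases were not counted.

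Socs2, known for restraining growth hormone signalling, and Socs3, which like Socs1 has a kinase inhibitory region and binds gp130, were lower. Socs2 (ENSMUSG00000020027.18, chromosome 10, 95385362 to 95417180, minus strand) stood at 81.0, 88.0, 85.8 and 81.4 TPM, with a mean of 84.1 ± 3.42. Socs3 (ENSMUSG00000053113.3, chromosome 11, 117966079 to 117970047, minus strand) stood at 26.5, 27.6, 27.6 and 28.5 TPM, with a mean of 27.5 ± 0.808. In neither gene did a library stand apart. Socs1 was 10.5, 10.7, 13.9 and 10.5 times as abundant as Socs3 in replicates 1 to 4.

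Socs7 and Socs5 belong to the branch of the family with a long N-terminal region. Socs7 (ENSMUSG00000038485.5, chromosome 11, 97362551 to 97398542, plus strand) stood at 44.3, 40.7, 39.6 and 40.5 TPM, with a mean of 41.2 ± 2.07. Socs5 (ENSMUSG00000037104.8, chromosome 17, 87107679 to 87137583, plus strand) stood at 12.2, 12.3, 11.3 and 12.5 TPM, with a mean of 12.1 ± 0.523. Replicate 1 was highest for Socs7, and replicate 3 was lowest for both. Socs5 rests on the fewest counts of the 10 genes, 678 in replicate 1 to 1077 in replicate 3.

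Whether neighbours in this order differ was read from their ranges over the 4 libraries. The order was taken from the means of these same 4 libraries, so the pairs and their direction were not fixed beforehand. Of 9 neighbouring pairs, 3 overlapped: Cish with Socs1, Jak1 with Jak3, and Tyk2 with Socs7. Cish was above Socs1 in 3 of 4 libraries, with a mean log2 ratio of 0.22 ± 0.22, and in replicate 3 Socs1 was above Cish. Jak1 was above Jak3 in 4 of 4 libraries, by 0.12 ± 0.10 on the log2 scale. The part in this of Jak3 fragments lost where the gene overlaps Insl3 was not tested. Tyk2 was above Socs7 in 3 of 4 libraries, by 0.02 ± 0.08 on the same scale. The other 6 pairs did not overlap, with mean folds from 1.21 for Jak2 over Socs2 to 2.28 for Socs3 over Socs5. An exact sign-flip permutation test over 4 libraries, two-sided, has a smallest possible p, which rounds to 0.13. These 6 pairs and Jak1 with Jak3 all stood at that smallest value, with an adjusted p of 0.161 over the 9 pairs.

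The summed inhibitors exceeded the summed kinases in every library. Their ratio in TPM was 1.61, 1.71, 1.86 and 1.71, with a mean of 1.72 ± 0.104. Replicate 3 was highest, the library in which Socs1 was highest. The ratio sets 6 inhibitors against 4 kinases. Cish and Socs1 held 43.3 ± 2.58% and 37.1 ± 3.46% of the inhibitor sum. By the median of the mean levels the order was the reverse, with 134 TPM for the kinases and 62.6 for the inhibitors. With the main transcript lengths described further on, however, the inhibitor median lay above the kinase median. The former was midway between Socs1 at 216 TPM and Socs7 at 29.3, the latter midway between Jak3 at 152 and Jak2 at 69.4.

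These levels depend on the length by which a gene's counts are divided. The deposited length sums all exons of all transcripts of a gene, and for some members it far exceeds a single messenger RNA. Socs2 has 9531 exon bases in the tables, whereas its main transcript, the longest that GENCODE M21 tags as principal, has 2222. For Cish the lengths are 6419 and 2850 bases. With main transcript lengths for all genes, at most the deposited ones, Socs2 stood at 247 ± 9.64 TPM, or 2.94 times its first value, and Cish at 563 ± 20.0. Socs1, Jak2 and Socs5, whose lengths stayed as they were, came to 0.685 times their first values because the total over all genes grew. Socs2 moved from position 6 to position 2, the other genes kept their order among themselves, and only Socs2 and Socs1 overlapped. The ratio of inhibitors to kinases was 2.44 ± 0.0955 on this scale. In counts per library total with no division by length, which do not compare levels between genes, the order was Cish, Jak1, Jak3, Socs2, Jak2, Socs1, Socs7, Tyk2, Socs3 and Socs5, so Socs1, the gene with the shortest model, was at position 6. This alternative was chosen after the values had been seen, and the tables do not show from which transcript the fragments came.

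**Figure D2:**
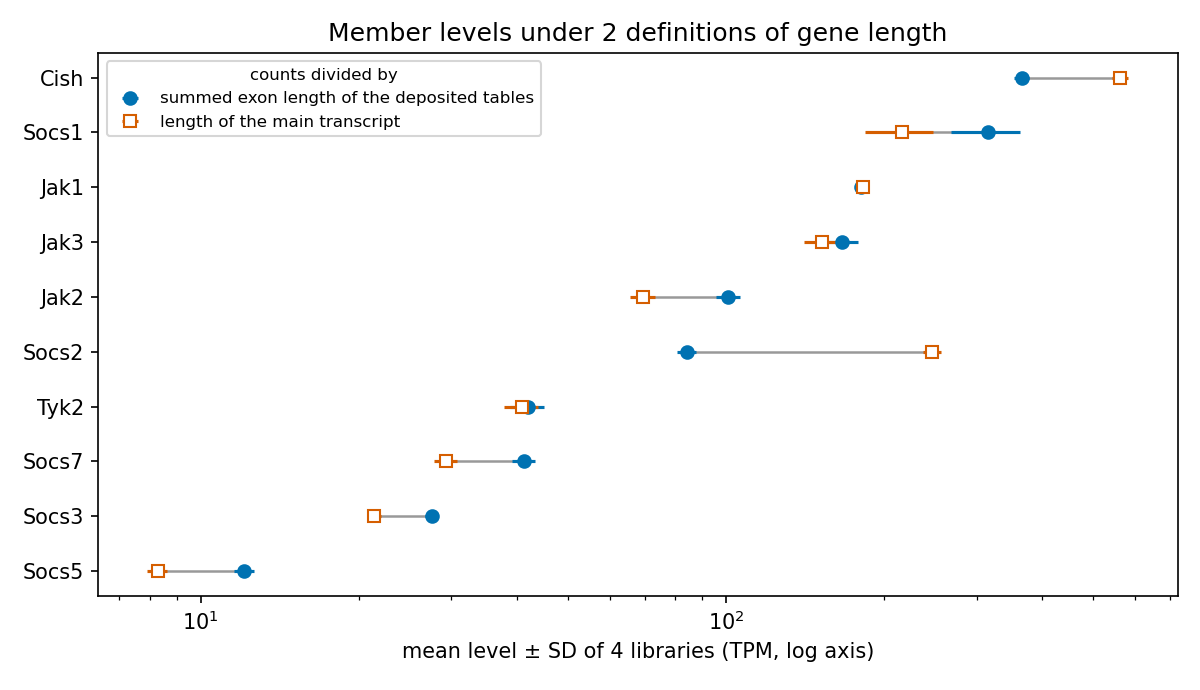
Mean level of each gene (TPM, log axis) with bars of 1 SD over 4 libraries, from counts divided by the summed exon length of the deposited tables (filled circles) or by the length of the main transcript (open squares). Socs2 moves from 84.1 to 247 TPM and Cish from 365 to 563, while Jak1 stays at about 180.3 to 182.

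A test in edgeR over 12917 genes contrasted each library with the remaining 3, which compares libraries and not conditions. By Xist and Ddx3y, replicates 1 and 2 took female values and replicates 3 and 4 male values. Each remaining set of 3 thus mixed both. A difference that follows this split widens the spread within such a set, so these contrasts are poorly placed to call it. No test set replicates 1 and 2 against replicates 3 and 4. None of the 10 genes was called at a Benjamini-Hochberg adjusted p of 0.05 in any of the 4 comparisons, in which 0.0697%, 0%, 0.0232% and 0% of all genes were called for replicates 1 to 4. At an unadjusted p of 0.05, edgeR passed 1, 2, 1 and 0 of the 10, where 9.31%, 6.78%, 2.31% and 2.49% of all genes passed. DESeq2 called 0 of the 10 in each comparison too, where 0.226%, 0.684%, 0.0227% and 0% of the genes it gave an adjusted p were called. It passed 0, 2, 1 and 0 of the 10 at an unadjusted p of 0.05, where 4.51%, 3.64%, 1.06% and 1.15% of all genes passed. It gave no adjusted p for Socs3 in replicate 2 and Socs5 in replicates 1 and 2.

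Socs1 came nearest to a call. It stood at 384 TPM in replicate 3, outside the range of 280.0 to 301 in the others, a difference of 0.40 on the log2 scale (SE 0.08), with an unadjusted p of 0.00011, the 7th smallest of 12917, and an adjusted p of 0.2 in edgeR. The adjusted p in edgeR was 0.00075 with no filter on low counts and 0.0084 without replicate 2, and between 0.051 and 0.18 under the other alternatives, DESeq2 included. In replicate 1, where Socs1 was lowest, the difference was -0.23 in edgeR (SE 0.10) and in DESeq2 (SE 0.25). In edgeR it was -0.30 without replicate 2 and -0.29 without replicate 4, but -0.09 without replicate 3, the library where Socs1 was highest.

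Jak3 and Tyk2 were the members that passed the unadjusted threshold in replicate 2. Jak3 differed by -0.20 (SE 0.08) and Tyk2 by -0.19 (SE 0.08) on the log2 scale, with adjusted p of 0.68 and 0.69 in edgeR. In replicate 4 the 10 differences lay between -0.09 and 0.07. The median coefficient of variation of the 10 genes was 4.67%, beside 6.52% over all expressed genes and 5.35% over the 7637 expressed genes within the same range of levels. Socs1, Jak3 and Tyk2 were the 3 above the median of all.

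**Figure D3:**
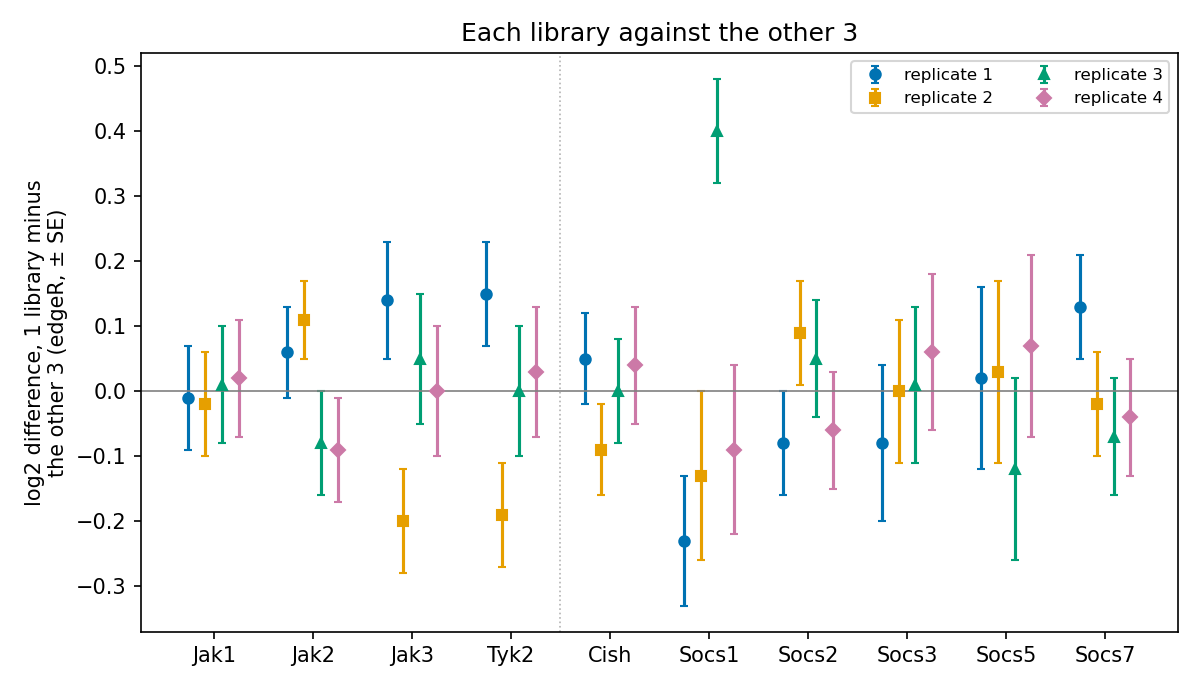
Difference of each library from the other 3 on the log2 scale (edgeR) with bars of 1 SE, kinases to the left of the dotted line and inhibitors to the right. Socs1 in replicate 3, at 0.40, is the point farthest from 0, and Jak3 and Tyk2 lie at -0.20 and -0.19 in replicate 2.

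The rest of the pathway was described from 10 lists that hold 102 further genes, of which 81 were expressed. None of the 85 that could be tested was called by edgeR in any library comparison, and 16 of them, or 18.8%, passed an unadjusted p of 0.05 in at least 1 comparison, close to the 18.1% of all genes tested that did. Of the 10 members, 3 did. All 8 receptor chains that pair with the common gamma chain, or are it, were expressed, at a median of 179.8 TPM. The interleukin 2 receptor chains led, with Il2ra at 1488 ± 19.4 TPM, Il2rb, which carries Jak1, at 909 ± 29.8 and Il2rg, which carries Jak3, at 248 ± 12.2. Other chains that carry Jak1 were Il21r at 244 ± 9.03, Il4ra at 115 ± 7.84, Il7r at 8.82 ± 1.52 and Il9r at 5.18 ± 0.840. Il15ra was lowest at 2.68 ± 0.183.

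Of 9 receptor chains of the gp130 and interleukin 12 group, 6 were expressed. Il12rb1, which carries Tyk2, stood at 85.3 ± 7.83 TPM and Il6ra at 77.9 ± 5.10. Il6st, which encodes gp130 and carries Jak1, stood at 30.2 ± 0.862. Il23r and Il12rb2, which carry Jak2, were at 0.0727 ± 0.0823 and 6.44 ± 0.489. Lifr, which carries Jak1, was at 0.00897 ± 0.0110, and Osmr was lowest at 0.00120 ± 0.00239. Il27ra, a chain that uses Jak1, measured 64.2, 59.4, 30.7 and 30.7 TPM over the replicates in order, with the same libraries high as for Jak2. The part of the Xist and Ddx3y differences in this was not tested either. The comparisons of single libraries, in which Il27ra was not called, are poorly placed to find such a split.

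Interferon and interleukin 10 receptors were expressed in 6 of 8 cases. Ifngr2, which carries Jak2, stood at 60.5 ± 2.33 TPM, Ifngr1, which carries Jak1, at 55 ± 1.90, Ifnar1, which carries Tyk2, at 43.4 ± 0.405 and Il10rb, which also carries Tyk2, at 31.8 ± 2.57. Ifnar2, Il10ra and Ifnlr1, which carry Jak1, were at 32.5 ± 1.02, 11.5 ± 1.15 and 0.587 ± 0.169. Il22ra1 had 0 counts, which allows up to 0.0925 TPM for counting error. Of 13 chains of the beta common group and other receptors, most of which use Jak2, 4 were expressed, led by Crlf2 at 43.2 ± 5.29, Il3ra at 20.3 ± 2.22 and Csf2ra at 17.7 ± 1.98. Of chains that carry Jak2, Csf2rb was at 3.69 ± 1.09, Epor at 0.764 ± 0.542 and Prlr at 0.151 ± 0.0694. Ghr, Lepr and Csf3r had 0 counts, which allows up to 0.0262, 0.0337 and 0.0658 TPM.

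All 7 STAT genes were expressed, at a median of 166 TPM. Stat6 stood at 302 ± 10.8, Stat5b at 243 ± 8.03, Stat5a at 221 ± 11.6 and Stat3 at 166 ± 3.45, whereas Stat4 stood at 19.8 ± 0.945 and Stat2 was lowest at 16.8 ± 0.407. All 13 genes of the STAT5 target list were expressed, led by Lta at 2702 ± 98.9, Tnfrsf4 at 1190.1 ± 15.4 and Tnfrsf18 at 580.2 ± 18.2, with the repressor Bcl6, which STAT5 is known to hold down, lowest at 3.38 ± 0.219. Of 15 genes of the interferon target list, 9 were expressed. Psmb8, an immunoproteasome subunit, stood at 305 ± 16.9, and the immunity GTPases Igtp and Ifi47 at 135 ± 16 and 135 ± 12.5, while Rsad2 was lowest at 0.00869 ± 0.0105.

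Other restraints on the pathway were expressed in 11 of 12 cases. The phosphatases Ptpn6 and Ptpn1, which dephosphorylate receptors and kinases, led at 538 ± 27.3 and 266 ± 6.48 TPM, followed by the phosphatase Ptprc at 159.8 ± 2.62, and Usp18, which blocks the type I interferon receptor, was lowest at 0.940 ± 0.481. The list of ligase partners of the SOCS box has 10 symbols, of which 2 are older names of Elob and Eloc and matched nothing, and the 8 genes left were all expressed. Elob and Eloc, the elongins that bind the box, stood at 726 ± 42.2 and 73.6 ± 4.19 TPM, Nedd8 at 631 ± 20.9, the ring subunit Rnf7 at 118 ± 6.41 and the scaffold Cul5 at 29.9 ± 1.18, and Ube2f was lowest at 23.0 ± 1.36. All 9 adaptors and chaperones were expressed, led by the chaperones Hsp90ab1 at 6584 ± 284, Hsp90aa1 at 825 ± 31.1 and their kinase partner Cdc37 at 145 ± 3.43, with Gab2 lowest at 1.61 ± 0.230.

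**Figure D4:**
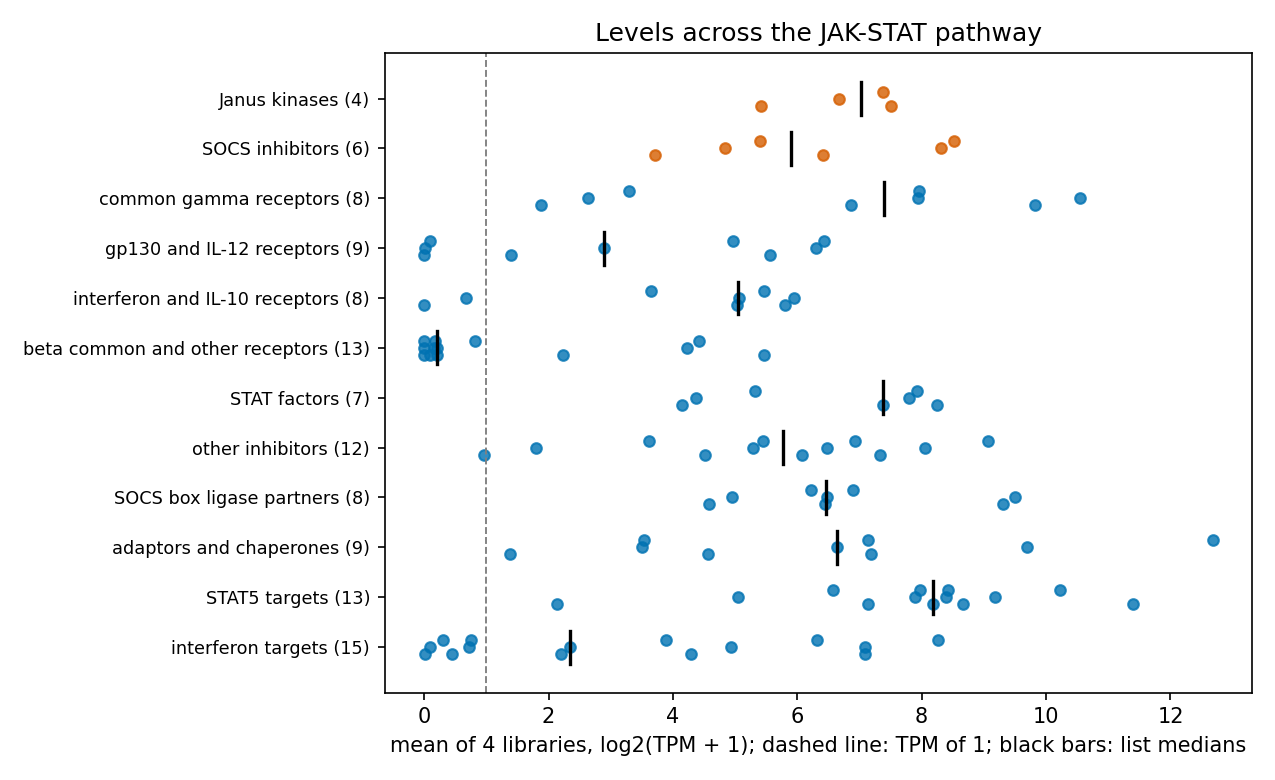
Mean level of each gene over 4 libraries as log2(TPM + 1), with 1 row per list, the number of genes in brackets, black bars at list medians and a dashed line at 1 TPM. The Janus kinases and SOCS inhibitors (orange) all lie right of the line, while 9 of 13 beta common and other receptors lie left of it.

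For each member, the gene of these lists nearest in level was found by the root mean square difference of log2(TPM + 1) over the 4 libraries. For Jak1 it was Stat3 at 0.12, for Jak3 Ptprc at 0.11 and for Jak2 the adaptor Sh2b1 at 0.09. Cish lay nearest to Bcl2l1, a survival gene, at 0.11, Socs1 to Psmb8 at 0.20, Socs2 to the ligase subunit Rbx1 at 0.04, and Tyk2 and Socs7 both to the ligase Cblb, at 0.09 and 0.07. Socs3 lay nearest to Psmb9 at 0.12 and Socs5 to Pias3 at 0.09. With 4 libraries this measure reads closeness of level.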

How the data were processed

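The genes and lists were chosen with earlier results of these data known, so no list is independent evidence. Whole-number counts per gene were made by the authors with featureCounts 1.4.6-p4 on mm10 and GENCODE M13, reverse-stranded, from fragments with both ends aligned, per the file headers. Counting of fragments that fit several genes or places was not requested there, so overlapping genes and near-identical copies can be undercounted.

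From the deposited counts and summed exon lengths, TPM was computed here. Symbols came from GENCODE M21 for 50376 of 50600 identifiers. Libraries were compared with edgeR 4.0.16 (TMM, filterByExpr, quasi-likelihood test, Benjamini-Hochberg adjustment over all genes tested), which takes the single library's spread from the remaining ones. The SE beside an edgeR difference was computed here, as the size of the difference divided by the square root of the F statistic of its test. DESeq2 1.42.0 was an alternative. Other alternatives were RLE size factors, no count filter, other TPM thresholds and denominators, FPKM, leaving out each replicate and, chosen after seeing the data, main transcript lengths. Floors for genes at 0 are 3 counts in the library where that gives the highest TPM, and cover counting error only, since PCR copies are not independent molecules.

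Named were all 10 members, with the 3 highest and the lowest gene of each pathway list and those whose role pairs with a member, chiefly receptor chains that carry a kinase and STAT genes. Insl3, Xist and Ddx3y were named after their values had been seen. The results of 2 further genes are not reported here.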

Additional observations from a re-analysis of the deposited data

Results flagged for a closer look

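Of 91 expressed genes checked, the 10 members included, 4 had 1 library apart from the other 3 by Dixon's test, 4.40% where chance alone gives about 1 in 20, and none was a member. The kinase Pim1 stood at 375 TPM in replicate 1 against 413, 414 and 417 in replicates 2, 3 and 4. Bcl2 stood at 34.7 in replicate 3 against 31.1 to 31.4, Bcl6 at 3.05 in replicate 3 against 3.46 to 3.52, and the adaptor Sh2b2 at 8.79 in replicate 2 against 11.1 to 11.3. No cause was tested.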

How the results depend on the processing

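All 10 members stayed expressed at thresholds of 0.5 and 5 TPM, at 1 FPKM and without each replicate. Leaving out mitochondrial and rRNA-like genes from the TPM total shifted member levels by 4.16 to 4.58%, TMM factors by at most 0.350% and leaving out a replicate by at most 7.51%. The ratio of inhibitors to kinases of 1.72 was 2.44 per main transcript and 1.32 from counts not divided by length. Overlapping neighbour pairs numbered 3, or 1 per main transcript, and 2 to 3 without a replicate. The number of all genes called in edgeR moved far more. For replicate 1 it was 9, with 105 when no filter was applied, 16 by DESeq2 and 23 to 341 without another replicate. For replicate 2 it was 0, with 60, 28 and 3 to 52 under the same alternatives, for replicate 3 it was 3, with 35, 5 and 16 to 21, and for replicate 4 it was 0, with 16 when no filter was applied, 0 by DESeq2 and 2 to 9. The cause was not tested. No paired analysis was possible because the labels give 1 group. Depth limits the members little, since the smallest count was 678.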
